A study of Mus musculus with 9 samples.

Results

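The 42 genes described here encode the machinery that folds secreted proteins in the endoplasmic reticulum (ER) and ships them out in COPII vesicles. They were grouped by function, as ER chaperones, disulfide isomerases, members of the unfolded protein response, subunits of the COPII coat and factors for the export of large cargo. The rule itself uses no measured value, but the genes were chosen with earlier results of these data known, so counts over them are descriptions. Of the 39179 genes listed in the count data, these 42 were all present, and all 42 passed the filter on low counts that left 13418 genes for testing.

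RNA was sequenced from capillaries with the cells around them, cut by laser microdissection (LMD) from the ossification front (OF) of the femur, the zone where new bone is laid down under the growth plate. The ages compared were juvenile mice at 4 weeks (5 libraries), when the femur is growing fast, and adult mice at 12 weeks (4 libraries). All mice carried the endothelial reporter Tg(TIE2GFP)287Sato/J, in which the Tie2 promoter drives GFP, and the labels give C57BL/6 as their origin for both ages; no treatment separated the groups. The GFP guided the laser to vessels, but the pieces also held perivascular cells, several pieces were pooled for a sample, and the labels do not say whether each library came from a mouse of its own, so the p-values measure the spread between these libraries.

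Proteins bound for secretion enter the ER through the Sec61 channel, fold there with the help of chaperones, lectins and disulfide isomerases, and leave at ER exit sites in vesicles wrapped by the COPII coat. Escaped ER residents are caught in the Golgi by KDEL receptors and carried back in COPI vesicles. When unfolded protein accumulates, the sensors encoded by Ern1, Eif2ak3 and Atf6 start the unfolded protein response, whose transcription factors raise chaperone genes, and in bone this system is known for the load that procollagen, long and rigid, puts on it.

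The unfolded protein response reads short DNA words near the start of its target genes, and the ones in the promoters of the genes below are shown so that the fold changes of the genes that carry them can be set beside them. Promoter windows from 250 bases before to 50 after the start that RefSeq gives (GRCm38.p6) were found for 36 of the 42 genes. The gene positions printed further on are those of GENCODE (GRCm38), whose start can lie elsewhere. The words searched, on both strands, were the ER stress element ERSE (CCAAT and CCACG with any 9 bases between them), its variant ERSE-II (ATTGG and CCACG with any 1 base between them) and the core of the unfolded protein response element, UPRE (TGACGTGG). Both ER stress elements hold the letters CCACG, and so does the reverse complement of the UPRE core. ERSE was found in 6 of the 36 promoters and in 37 of all 27025 promoters (0.137%), ERSE-II in 2 of the 36 and in 12 overall (0.0444%), and the UPRE core in 3 of the 36 and in 193 overall (0.714%). Capitals mark the matched word without the 9 free bases of ERSE, while the free base of ERSE-II is in capitals too. Each line runs 5′ to 3′ on the strand of the gene with 20 bases on either side of the match, or fewer where the RefSeq start came first. For Hspa5 and Sec24d the match lies before the RefSeq start but after that of GENCODE, and 5 bases on either side are shown. A word that reads CGTGG first and ATTGG second, or CCACGTCA, lies on the other strand.
Calr (ERSE, chr8:84847055-84847113, minus strand): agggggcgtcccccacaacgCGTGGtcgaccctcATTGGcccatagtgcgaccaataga
Canx (ERSE, chr11:50325780-50325838, minus strand): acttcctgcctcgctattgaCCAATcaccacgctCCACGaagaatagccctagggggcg
Dnajc3 (ERSE, chr14:118937807-118937865, plus strand): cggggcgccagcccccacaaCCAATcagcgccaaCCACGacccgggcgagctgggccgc
Hsp90b1 (ERSE, chr10:86705513-86705571, minus strand): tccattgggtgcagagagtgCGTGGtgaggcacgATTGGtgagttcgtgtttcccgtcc
Hsp90b1 (ERSE, chr10:86705618-86705676, minus strand): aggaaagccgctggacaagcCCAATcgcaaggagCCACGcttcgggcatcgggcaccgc
Hspa5 (ERSE, chr2:34772020-34772048, plus strand): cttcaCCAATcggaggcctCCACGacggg
Pdia6 (ERSE, chr12:17266471-17266529, plus strand): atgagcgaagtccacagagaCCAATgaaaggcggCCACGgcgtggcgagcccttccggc
Herpud1 (ERSE-II, chr8:94386357-94386407, plus strand): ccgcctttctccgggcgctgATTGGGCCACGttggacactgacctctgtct
Kdelr3 (UPRE core, chr15:79516358-79516405, plus strand): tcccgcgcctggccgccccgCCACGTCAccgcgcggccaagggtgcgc
Sec24d (UPRE core, chr3:123267465-123267482, plus strand): gcgccTGACGTGGcacta
Of the genes shown, Hsp90b1 carried a pair of ERSE matches, one on each strand. The matches in Dnajb11 (ERSE-II) and Sec23a (UPRE core) lay after both starts and are not printed. A match is a description of the letters in the window and was not measured as a bound site.

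Library totals ranged from 4856833 to 8077362 counts, so that 3 counts corresponded to 0.371 to 0.618 CPM (counts scaled to a common library size), and the lowest count of any of the 42 genes in any library was 28. In the 4-week libraries the 10 most abundant genes took 24.2% to 28.5% of the counts, against 14.9% to 19.3% at 12 weeks. Replicates 4 and 5 at 4 weeks held more counts on Y-linked genes than on Xist, and the other 7 libraries held 2965 to 6598 Xist counts; the labels do not give sex. The 10 endothelial markers summed to 449 to 787 CPM at 4 weeks and 558 to 741 at 12 weeks, and none of them passed the edgeR test, an unadjusted p under 0.05 or the DESeq2 test. The 12 osteoblast markers summed to 172913 to 214702 CPM at 4 weeks and 62992 to 94382 at 12 weeks. Most of both sums came from Col1a1, Col1a2 and Ibsp. By edgeR, 6 of the 12 were higher at 4 weeks and 1, Bglap, at 12 weeks (its reads can be shared with near-identical neighbouring copies). Spp1, Phex, Pth1r, Runx2 and Alpl were not called, at log2 fold changes of 0.17 to 0.65. Of these, Runx2 and Alpl had an unadjusted p under 0.05 by edgeR. In this list 11 of the 12 lay above 0, with a median of 0.82. Plasma cell markers, a set of genes from a cell type with a large ER, summed to 425 to 566 CPM at 4 weeks and 401 to 513 at 12 weeks; the most abundant were Sdc1 and Fkbp11. Fkbp11 was higher at 4 weeks (log2 fold change 1.11), and the other 6 of the 7 tested were not called and lay below 0, with a list median of −1.40. Of these 6, Igkc, Prdm1 and Mzb1 had an unadjusted p under 0.05 by edgeR. The plasma cell markers Igkc, Jchain and Derl3 each had their highest value in 12-week replicate 4. Summed markers of neutrophils (18.1 to 72.1 CPM at 4 weeks, 104 to 4439 at 12 weeks) and of erythroid cells (316 to 2026 at 4 weeks, 3402 to 30733 at 12 weeks) were higher in every 12-week library than in any 4-week library. So were the sums for macrophages (485 to 827 and 1105 to 1833) and megakaryocytes (18.3 to 28.1 and 68 to 4304). Called higher at 12 weeks by edgeR were 8 of 9 neutrophil, 7 of 8 erythroid, 2 of 8 macrophage and 1 of 4 megakaryocyte markers tested. Single markers did not all separate, and Mpo, C1qa and Gp1bb, among others, overlapped between the ages. The sums of osteoclast markers (8975 to 13936 and 13866 to 20779), adipogenic marrow stroma (311 to 473 and 436 to 1197), chondrocytes (2203 to 3148 and 1836 to 6369) and B cells (37.1 to 73.2 and 22 to 217) overlapped between the ages, and no marker was at 0 in every library. Of these lists, 3 of 8 osteoclast markers (Acp5, Atp6v0d2 and Nfatc1) were called higher at 12 weeks, as were 2 of 9 chondrocyte markers (Col2a1 and Comp) and 1 of 7 stroma markers (Cxcl12). Col11a1 among the chondrocyte markers and Lepr among the stroma markers were called higher at 4 weeks, and none of the 5 B cell markers tested was called by edgeR, while 1 (Cd79a) had an unadjusted p under 0.05 and passed the DESeq2 test. The list medians on the log2 scale were −0.28 for osteoclasts, −2.38 for chondrocytes, −1.16 for stroma and −2.42 for B cells. The part of these shifts in cell makeup in the differences below was not tested, and in such bulk pieces fewer cells of a type and less RNA per cell cannot be told apart.

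Among the 42 genes, most of those called higher at 4 weeks than at 12 weeks belong to vesicle export from the ER and retrieval to it. Hspa5 and Hsp90b1, the main chaperones, had nearly the same level at both ages. Outside the 42, the remaining COPII genes, taken with cargo receptors and tethers, had 4.76% called higher at 4 weeks. Of the 42 genes, 8 were higher at 4 weeks (19%, against 1.99% of all tested genes in that direction) and 1, Sdf2l1, was higher at 12 weeks (2.38%, against 1.89%), by edgeR's quasi-likelihood test with Benjamini-Hochberg adjustment over all tested genes. The other 33 did not pass. The 8 were the transcription factor gene Creb3l1, the KDEL receptor genes Kdelr2 and Kdelr3, the COPII genes Sar1a, Sec31a and Sec24d, the translocation channel gene Sec61a1 and the isomerase gene P4hb. Fold changes are given as log2 of 4 weeks over 12 weeks throughout, so that a value above 0 means higher at 4 weeks. The median over the 42 genes was 0.31, with 30 above 0 and 12 below (25 above with library totals alone as the scaling), beside a median of −0.01 over all tested genes. In 10 of the 42 the normalized counts of all 4-week libraries lay above those of all 12-week libraries (23.8%, against 5.07% of all tested genes), and in 2 they lay below (against 4.08%). DESeq2 with its default settings called 16 higher at 4 weeks and 1 at 12 weeks, with 4.57% and 4.9% of all genes called. Without the pair of 4-week libraries with a Y-linked pattern, edgeR called 1 of the 42, Creb3l1, and 0.303% of all genes higher at 4 weeks, while the median of the 42 was 0.38. The other 8 genes then had edgeR adjusted p of 0.066 to 0.272, with log2 fold changes of 0.56 to 1.13 in the 7 that were higher at 4 weeks and −1.12 in Sdf2l1.

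**Figure D1:**
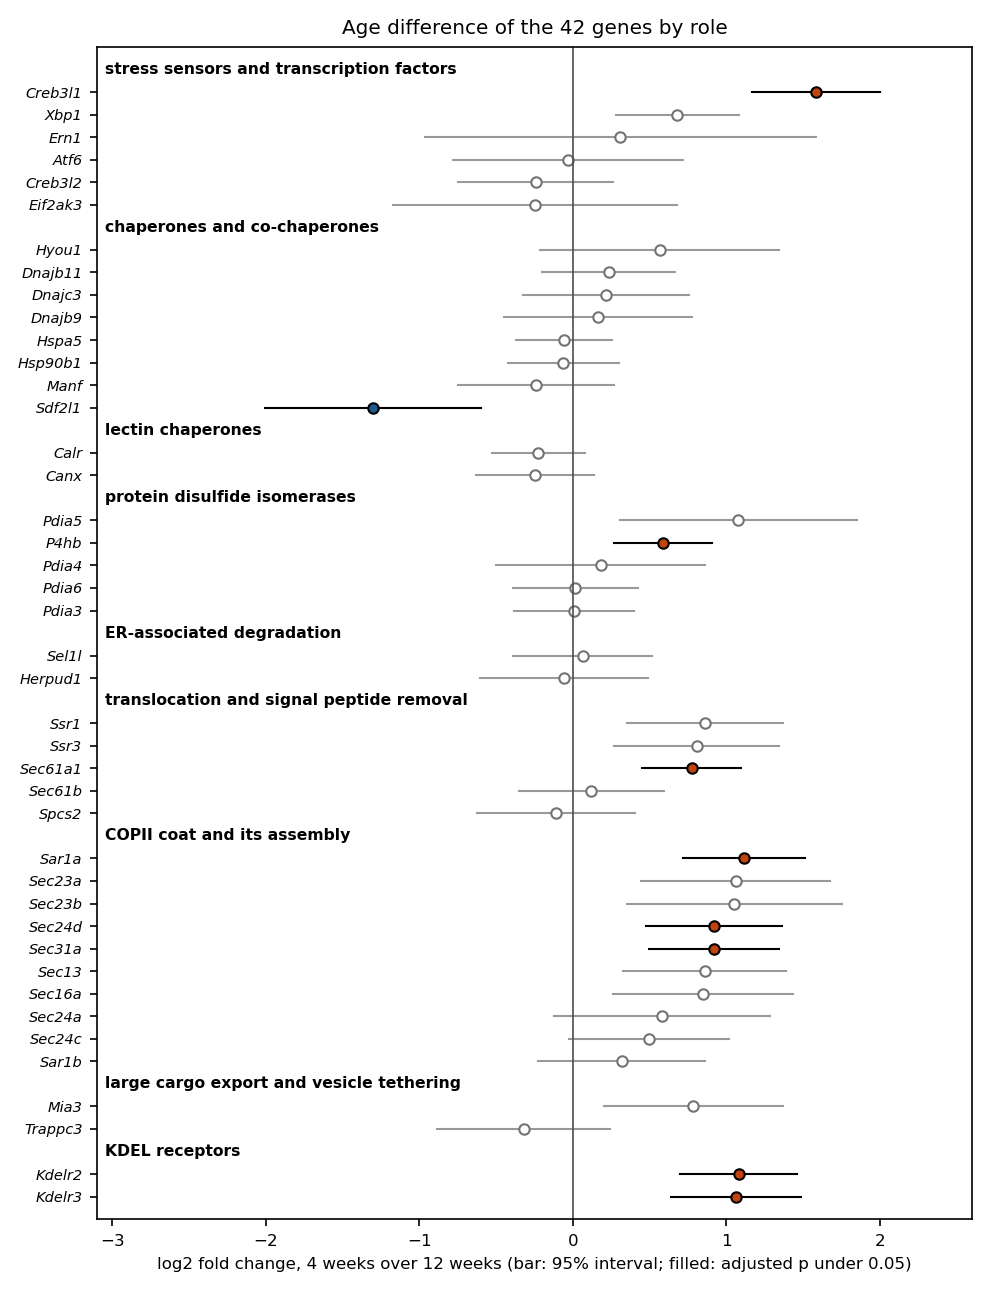
Fold change of each of the 42 genes between the ages, grouped by role; the x axis is log2 of 4 weeks over 12 weeks, points are edgeR estimates, bars are 95% intervals and filled points have an adjusted p under 0.05. All 10 COPII genes and both KDEL receptor genes lie above 0, whereas the chaperones spread around 0, with Sdf2l1 at −1.30, and both lectin chaperones lie below 0.

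The genes differed widely in abundance. Levels per kilobase use the length of all annotated exons of a gene merged, so that ranks between genes depend on the annotation. Per kilobase of exon, the mean level at 4 weeks ran from 1.87 CPM for Ern1, a stress sensor, to 301 CPM for P4hb. At 4 weeks P4hb was followed by Sec61b, Kdelr3 and Kdelr2, with 291, 274 and 253 CPM per kb. At 12 weeks Sec61b and Calr led, with 268 and 252 CPM per kb. The largest move in rank was that of Sdf2l1, from place 28 of the 42 at 4 weeks to place 11 at 12 weeks, while Creb3l1 went from place 6 to place 12. Summed per kb over a role, the COPII genes gave 367 to 462 CPM in the 4-week libraries and 174 to 275 in the 12-week libraries, and the KDEL receptor genes 463 to 645 and 183 to 283. The summed chaperones ranged from 339 to 443 CPM per kb at 4 weeks and from 370 to 499 at 12 weeks, so that these ranges overlapped. Those of the COPII genes and of the KDEL receptor genes did not, nor did those of the stress sensors and transcription factors (281 to 366 at 4 weeks and 115 to 178 at 12 weeks). Most of this last sum came from Creb3l1 and Xbp1, with means of 193 and 100 of 317 CPM per kb at 4 weeks. In this role 3 of the 6 genes had log2 fold changes below 0. The summed lectin chaperones did not overlap either and were higher at 12 weeks, with 259 to 297 CPM per kb at 4 weeks and 316 to 360 at 12 weeks. Neither of them, Calr or Canx, passed the edgeR test or had an unadjusted p under 0.05. The sums of the other 4 roles overlapped.

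**Figure D2:**
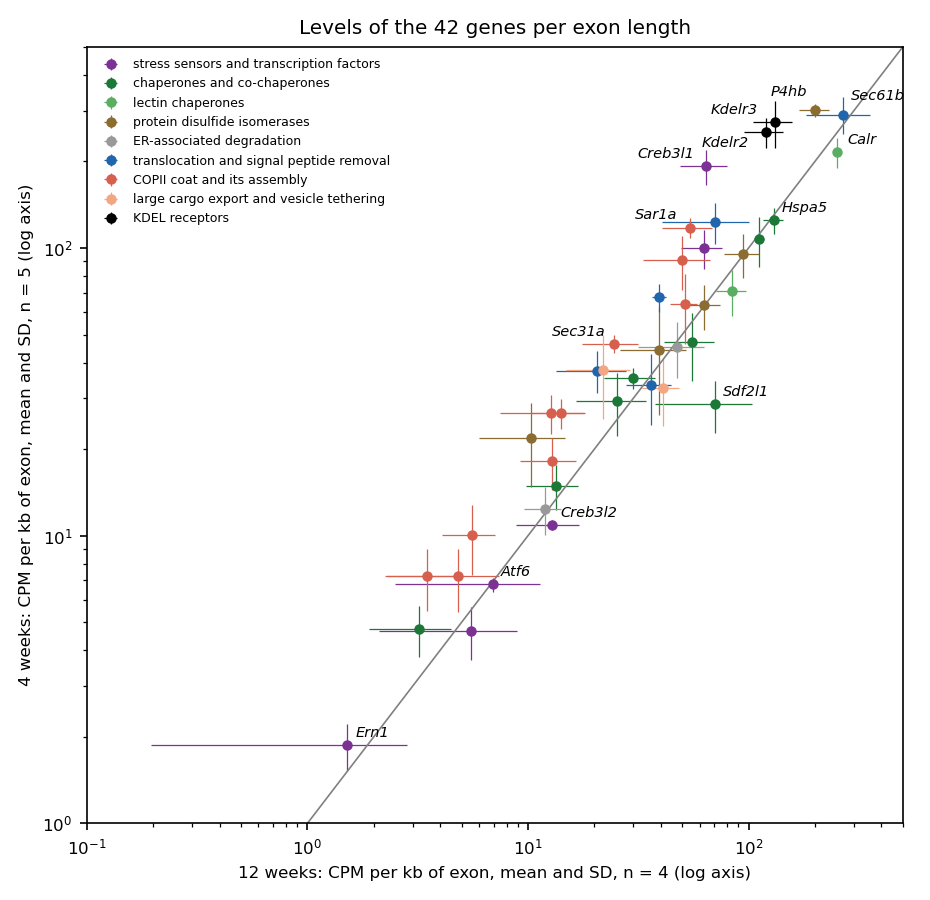
Mean level of each gene at 4 weeks (y axis) against 12 weeks (x axis), in CPM per kilobase of exon on log axes, with SD bars (n = 5 and n = 4) and the line of equal levels. The KDEL receptor genes, Creb3l1 and the COPII genes lie above the line, Hspa5 lies close to it and Sdf2l1 lies below.

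Among the stress sensors and transcription factors, only Creb3l1 passed the edgeR test of the 6, and it had the smallest p of the 42 genes. Creb3l1 (ENSMUSG00000027230, chr2:91982328-92024502, minus strand) encodes an ER membrane protein that is cut under stress and whose free part switches on collagen and secretory genes in osteoblasts. Its normalized counts (counts divided by the TMM-scaled size of the library relative to the mean library), listed here and below in the order of the replicate numbers, were 2817, 2980.0, 2882, 3892 and 3191 at 4 weeks and 1090.4, 1359, 1008 and 750.2 at 12 weeks. The lowest 4-week library stood above the highest 12-week library by more than the range within either age. The means were 3153 ± 437 (SD, n = 5) at 4 weeks and 1052 ± 251 (SD, n = 4) at 12 weeks, a log2 fold change of 1.58 (SE 0.19, edgeR adjusted p = 0.00109). It was called in all 9 refits that each left out 1 library, and with and without the Y-linked pair.

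Xbp1, the transcription factor that becomes active when Ern1 splices its RNA, had counts of 1732, 2453, 2187, 2127 and 1719 at 4 weeks and 1647, 1067, 1299 and 1088 at 12 weeks. The ages did not overlap, but by a narrow gap, and the log2 fold change of 0.68 (SE 0.18, edgeR adjusted p = 0.0612) did not pass. Gene counts of this kind do not separate the spliced from the unspliced form. The paralog of Creb3l1, Creb3l2, known for its part in cartilage secretion, had counts of 488, 499, 514, 470.1 and 521 at 4 weeks and 609, 773, 647 and 331 at 12 weeks. Here the 4-week libraries were tightly grouped inside the range of the 12-week libraries, and the log2 fold change was −0.24 (SE 0.23, edgeR adjusted p = 0.687).

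The 3 sensors themselves overlapped between the ages. Atf6, a sensor that is cut in the Golgi to give a transcription factor, had counts of 374, 388, 419, 370.0 and 409.7 at 4 weeks and 382, 169.8, 760.2 and 289 at 12 weeks, and its log2 fold change was −0.03 with a 95% interval of −0.78 to 0.72. Its 12-week libraries covered a much wider range than its 4-week libraries. Ern1, the kinase and nuclease that splices Xbp1, was the scarcest of the 42 genes, with counts of 80.8, 112, 73.5, 111 and 104 at 4 weeks and 20.3, 175, 47.4 and 68.4 at 12 weeks. The interval of its log2 fold change, −0.97 to 1.59, leaves room for a difference in either direction. Eif2ak3, the kinase that slows translation under stress, had counts of 171, 148, 142, 189.7 and 233 at 4 weeks and 366, 149, 255 and 67.6 at 12 weeks and an interval of −1.17 to 0.68. For both genes the lowest and the highest library were 12-week libraries.

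Of the 8 chaperones and co-chaperones, none was called higher at 4 weeks by edgeR, at an unadjusted p under 0.05 or by DESeq2. Hspa5, which encodes BiP, the main chaperone of the ER and the usual marker of the unfolded protein response, had counts of 3380.4, 3489.9, 3725, 2875 and 3090.3 at 4 weeks and 3169.6, 3437, 3976 and 3235 at 12 weeks. The ranges of the ages lay across each other, and the means were 3312 ± 334 (SD, n = 5) at 4 weeks and 3454 ± 366 (SD, n = 4) at 12 weeks. Its log2 fold change was −0.06 (SE 0.14, edgeR adjusted p = 0.899) with a 95% interval of −0.37 to 0.25. The interval does not reach 0.89, the median of the COPII genes given below, but the difference between them was not tested. Hsp90b1, which encodes the ER member of the HSP90 family, had counts of 2095 to 3299 at 4 weeks and 2616 to 2942 at 12 weeks and an interval of −0.43 to 0.30. Dnajb9, Dnajb11 and Dnajc3, J-domain partners of BiP, had log2 fold changes of 0.16, 0.23 and 0.22. Hyou1, the exchange factor that resets BiP, was at 0.56 (edgeR adjusted p = 0.482) and Manf, a BiP-binding factor of the ER, at −0.24 (edgeR adjusted p = 0.693).

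Sdf2l1 was the exception in this role. It encodes a small ER protein that works with Dnajb11 and keeps unfolded clients from clumping (ENSMUSG00000022769, chr16:17130138-17132383, minus strand). Its counts were 239, 229, 207, 138 and 182 at 4 weeks and 706, 307, 670.1 and 278 at 12 weeks. Every 12-week library lay above every 4-week library, and at 12 weeks replicates 1 and 3 lay far above replicates 2 and 4. The log2 fold change was −1.30 (SE 0.33, edgeR adjusted p = 0.0436), or 2.46-fold higher at 12 weeks. Left out 1 library at a time, this call was lost in 7 of 9 edgeR refits, where its adjusted p reached 0.115, and it was kept without 12-week replicate 2 and without 12-week replicate 4.

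The lectin chaperones Calr and Canx, which hold newly glycosylated proteins until they fold, both had log2 fold changes below 0 that did not pass the test. Calr had counts of 4063, 4437, 4043, 3155 and 3801 at 4 weeks and 4555, 4684, 4546 and 4449.9 at 12 weeks. The 12-week libraries lay close together and just above the highest 4-week library, and the log2 fold change was −0.23 (SE 0.14, edgeR adjusted p = 0.468). Canx had counts of 2054, 1527, 1977, 2492 and 2408 at 4 weeks and 2525, 2978, 2358 and 2069.7 at 12 weeks, with the ages overlapping, and a log2 fold change of −0.25 (SE 0.18, edgeR adjusted p = 0.555).

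Among the 5 protein disulfide isomerases, which form and rearrange disulfide bonds, P4hb was called and the others were not. P4hb (ENSMUSG00000025130, chr11:120560298-120573253, minus strand) encodes an isomerase that is also the beta subunit of the enzyme that hydroxylates prolines in collagen. Its counts were 4895, 5538, 5491, 5493 and 5614 at 4 weeks and 3965, 4032, 3563 and 2826 at 12 weeks. All 4-week libraries stood above all 12-week libraries, and 12-week replicate 4 was the lowest. The log2 fold change was 0.59 (SE 0.15, edgeR adjusted p = 0.0448), the smallest among the genes called, and the call was kept in the refit without 12-week replicate 2 and lost in the 8 that left out another library, with edgeR adjusted p up to 0.103. Pdia5 had a larger log2 fold change with a wider error, 1.08 (SE 0.36, edgeR adjusted p = 0.118), and its counts ran from 217 to 490.0 at 4 weeks and 114 to 251 at 12 weeks. Pdia3, the isomerase that works with Calr and Canx, was at 0.01 with a 95% interval of −0.39 to 0.40, Pdia6 at 0.02 (−0.39 to 0.42) and Pdia4 at 0.18 (−0.50 to 0.86).

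Neither gene of ER-associated degradation, the route by which misfolded proteins are sent back for destruction, passed the edgeR test, an unadjusted p under 0.05 or the DESeq2 test. Sel1l, a scaffold of the ubiquitin ligase of this route, was at 0.06 with a 95% interval of −0.39 to 0.52. Herpud1, a partner of the same ligase and a common target of ER stress, was at −0.06 with an interval of −0.60 to 0.49.

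The translocation genes divided, with 4 of the 5 above 0 and a median log2 fold change of 0.77. Sec61a1 (ENSMUSG00000030082, chr6:88503579-88518905, minus strand) encodes the pore of the channel through which new chains enter the ER. Its counts were 2354, 3013, 2706, 3003 and 3181 at 4 weeks and 1720.1, 1530.3, 1607 and 1811 at 12 weeks. Every 4-week library lay above every 12-week library, and the 12-week libraries were close together. The log2 fold change was 0.77 (SE 0.15, edgeR adjusted p = 0.0142). An antisense gene shares 549 bases, or 8.2%, of its exons, and the strand setting of the counting was not given in the sources used here. Sec61b, a small subunit of the same channel, was at 0.12 with a 95% interval of −0.35 to 0.59, and it was among the most abundant of the 42 genes at both ages.

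Ssr1 and Ssr3 encode subunits of the translocon-associated complex, which helps chains into the channel. Ssr1 had counts of 1933, 2884, 2834, 2184 and 2441 at 4 weeks and 1950.1, 1194, 1439 and 815 at 12 weeks, so that 12-week replicate 1 reached the lowest 4-week library. Ssr3 had counts of 2629, 3839.8, 3648, 2845 and 3182 at 4 weeks and 1506, 1770.4, 2966 and 1145 at 12 weeks, with 12-week replicate 3 inside the 4-week range. Their log2 fold changes were 0.86 (SE 0.24, edgeR adjusted p = 0.0619) and 0.81 (SE 0.25, edgeR adjusted p = 0.0955), and both were called by DESeq2. Spcs2, a subunit of the peptidase that trims signal peptides, was at −0.11 with a 95% interval of −0.62 to 0.40.

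All 10 genes of the COPII coat and its assembly had log2 fold changes above 0, under TMM, DESeq2 and upper quartile scaling and with library totals alone, with a median of 0.89. Of these, 3 passed the edgeR test, against 1.99% of all tested genes called higher at 4 weeks, and 7 had an unadjusted p under 0.05. Over all 13418 tested genes, 2321 had an unadjusted p under 0.05 in either direction. Sar1a (ENSMUSG00000020088, chr10:61680299-61693297, plus strand) encodes the small GTPase whose insertion into the ER membrane starts a bud. Its counts were 2464, 3083, 2848, 2744 and 2689.9 at 4 weeks and 1415, 1095, 1655 and 940.5 at 12 weeks, and the lowest 4-week library exceeded the highest 12-week library by a wide gap. The log2 fold change was 1.12 (SE 0.18, edgeR adjusted p = 0.00663), or 2.17-fold. Its paralog Sar1b had counts of 624, 614, 526, 470.1 and 282 at 4 weeks and 369, 423, 475 and 348 at 12 weeks, which overlapped, and a log2 fold change of 0.32 (SE 0.25, edgeR adjusted p = 0.597).

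The outer layer of the coat is built from Sec13 and Sec31. Sec31a (ENSMUSG00000035325, chr5:100361649-100416234, minus strand) had counts of 2194, 2204, 2524, 2138 and 2412 at 4 weeks and 1027, 1499, 1503 and 823 at 12 weeks. Its 4-week libraries fell within a narrow band, and its 12-week libraries formed a higher pair, replicates 2 and 3, and a lower pair, with no overlap between the ages. The log2 fold change was 0.92 (SE 0.20, edgeR adjusted p = 0.0217), and the call was lost without 4-week replicate 3 or 5 or 12-week replicate 1, with adjusted p up to 0.0591. Sec13 had counts of 1613, 2414, 1829.9, 1842 and 1373 at 4 weeks and 962, 1409, 1058 and 579.5 at 12 weeks, with 12-week replicate 2 just above the lowest 4-week library, and a log2 fold change of 0.86 (SE 0.25, edgeR adjusted p = 0.0754).

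The inner layer holds Sec23, which activates the GTPase, and Sec24, which binds cargo. Sec24d (ENSMUSG00000039234, chr3:123267455-123365641, plus strand) had counts of 985, 957, 1129, 1252 and 986 at 4 weeks and 764, 558, 405 and 517 at 12 weeks. The ages did not overlap, and the log2 fold change was 0.92 (SE 0.20, edgeR adjusted p = 0.0261), although the call was kept only in the refits without 4-week replicate 1 or 2 or 12-week replicate 1 and lost in the other 6. Sec23a had counts of 709, 652, 837, 939 and 913 at 4 weeks and 323, 497, 542 and 191 at 12 weeks. Here too every 4-week library was above every 12-week library, but the 12-week libraries spread widely and the log2 fold change of 1.06 (SE 0.28, edgeR adjusted p = 0.0581) fell just short of the threshold. An antisense gene shares 8.9% of its exon bases. Sec23b, its paralog, had counts of 263, 268, 375, 193 and 329.9 at 4 weeks and 99.4, 149, 199.6 and 104 at 12 weeks and a log2 fold change of 1.05 (SE 0.32, edgeR adjusted p = 0.0949), with 4-week replicate 4 below 12-week replicate 3.

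The remaining cargo adaptors were less apart. Sec24c had counts of 882, 644, 504, 808 and 748 at 4 weeks and 337, 479, 689.5 and 531 at 12 weeks and a log2 fold change of 0.49 (SE 0.24, edgeR adjusted p = 0.317). Sec24a had counts of 353, 355, 554, 558 and 599 at 4 weeks and 207, 581, 261 and 247 at 12 weeks, where 12-week replicate 2 stood far above its age group and inside the 4-week range, and a log2 fold change of 0.58 (SE 0.33, edgeR adjusted p = 0.4). Sec16a, which organises the ER exit site, ran from 403 to 773 at 4 weeks and 206 to 414 at 12 weeks and was at 0.85 (SE 0.27, edgeR adjusted p = 0.105).

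Of the genes for large cargo and vesicle tethering, neither was called. Mia3 encodes TANGO1, the receptor that stretches COPII carriers to fit procollagen. Its counts were 757, 790.2, 894, 1527 and 1270.4 at 4 weeks and 458, 872, 639 and 466 at 12 weeks. The ages overlapped through 12-week replicate 2, and the log2 fold change was 0.78 (SE 0.27, edgeR adjusted p = 0.134), with an unadjusted p of 0.0123. Trappc3, a subunit of a tethering complex that receives ER vesicles, was at −0.32 with a 95% interval of −0.88 to 0.24.

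Both KDEL receptor genes on the list were higher at 4 weeks. Kdelr2 (ENSMUSG00000079111, chr5:143403838-143421901, plus strand) had counts of 2703, 2497, 3160.3, 3338 and 2816 at 4 weeks and 1453, 1318, 1689.7 and 1032 at 12 weeks. Kdelr3 (ENSMUSG00000010830, chr15:79516411-79527739, plus strand) had counts of 2018, 2607, 2139.8, 3135 and 2239 at 4 weeks and 1324, 1299, 1206 and 823 at 12 weeks. In both genes every 4-week library lay above every 12-week library, and 12-week replicate 4 was the lowest. The log2 fold changes were nearly equal, 1.08 (SE 0.18, edgeR adjusted p = 0.00626) for Kdelr2 and 1.06 (SE 0.20, edgeR adjusted p = 0.0118) for Kdelr3. Both calls, like those of Creb3l1, Sar1a and Sec61a1, were kept in all 9 refits that left out 1 library.

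**Figure D3:**
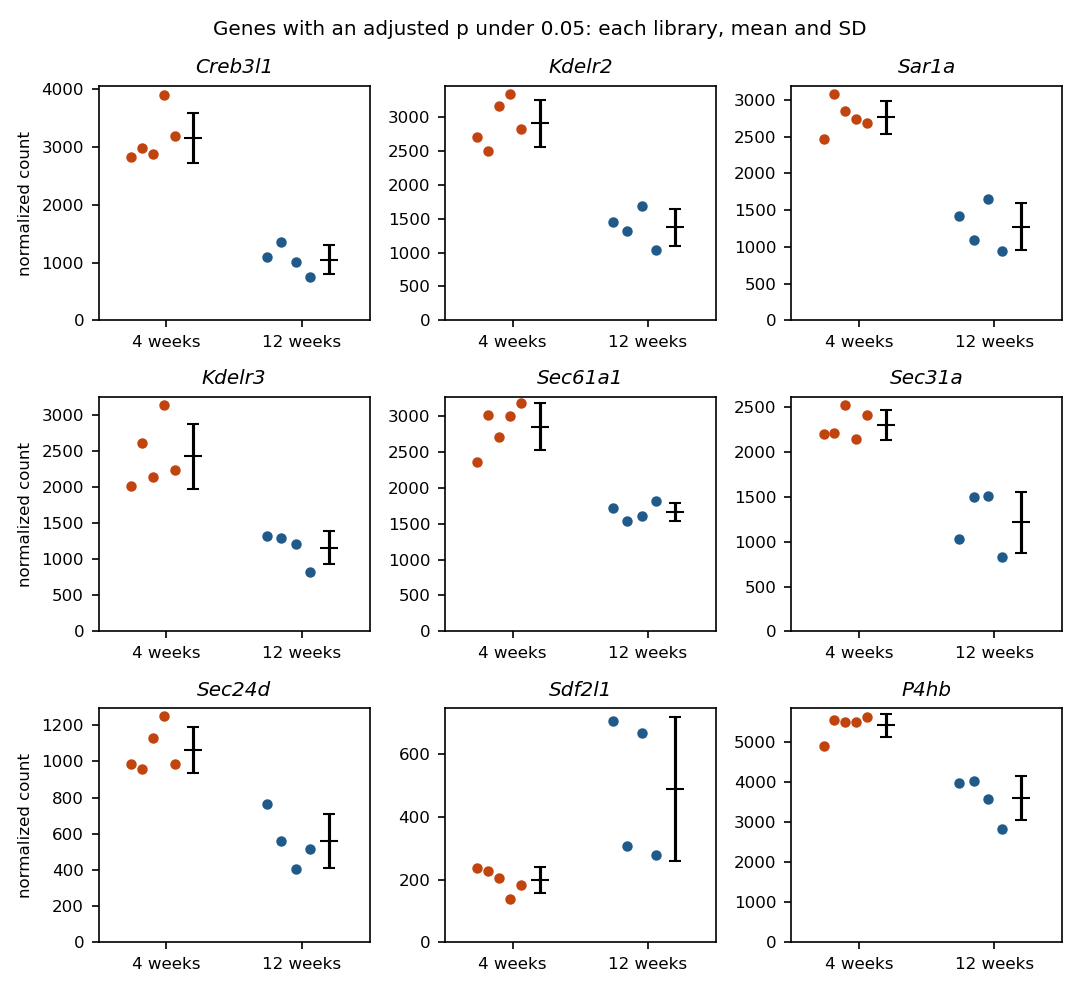
Normalized counts (y axis, from 0) of the 9 genes with an adjusted p under 0.05 in each library at 4 weeks (orange, n = 5) and 12 weeks (blue, n = 4), with the mean and SD as black bars. In all 9 panels the ages do not overlap; 8 genes are higher at 4 weeks and Sdf2l1 is higher at 12 weeks.

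The ratio of related genes within a library does not depend on the scaling between libraries, and the ages were set against each other in 9 pairs by exact permutation of the age labels (two-sided, smallest possible p = 0.00794). No pair passed after adjustment over the 9 pairs, where the smallest p the design allows becomes 0.0714 for a lone pair. The log2 ratio of Creb3l1 to Creb3l2 was 2.53, 2.58, 2.49, 3.05 and 2.61 at 4 weeks and 0.84, 0.82, 0.64 and 1.18 at 12 weeks. It was higher in every 4-week library, with means of 2.65 ± 0.23 (SD, n = 5) and 0.87 ± 0.23 (SD, n = 4), a difference of 1.78 (exact permutation p = 0.00794, adjusted p = 0.0714). Per kb of exon, Creb3l1 stood 17.6 times above its paralog at 4 weeks and 5.11 times above it at 12 weeks. As plain counts the ratios were 6.28 and 1.83.

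The log2 ratio of Sar1a to Sar1b was 1.98, 2.33, 2.43, 2.54 and 3.25 at 4 weeks and 1.94, 1.37, 1.80 and 1.43 at 12 weeks, and every 4-week library was again above every 12-week library. The difference was 0.87 (exact permutation p = 0.0159, adjusted p = 0.0714). Per kb of exon the GTPase paralogs were about level at 12 weeks, at a ratio of 1.04, and stood at 1.91 at 4 weeks. As plain counts these ratios were 3.11 and 5.69, so that the apparent equality depends on the exon lengths used. In the other pairs, the partners outside the 42 genes overlapped between the ages. Atf6b, a paralog of Atf6, had counts of 327, 283, 207, 61.3 and 241 at 4 weeks and 316, 147, 275 and 231 at 12 weeks. Sec24b, a further cargo adaptor, had counts of 166, 281, 196, 233 and 258 at 4 weeks and 98.7, 125, 200.3 and 167 at 12 weeks. Mia2, a partner of Mia3 in collagen export, had counts of 476, 351, 608, 527 and 483 at 4 weeks and 276, 522, 296 and 543 at 12 weeks. The lowest of these values was that of Atf6b in 4-week replicate 4, which gave that library the highest ratio of Atf6 to Atf6b. All 7 of these pairs overlapped between the ages, with adjusted p of 0.643 and above. Kdelr3 to Kdelr2 differed by −0.03, Sec23a to Sec23b by 0.09, Sec24a to Sec24b by 0.02 and Calr to Canx by 0.02 on the log2 scale, and larger differences with wide spread were seen for Mia3 to Mia2 (0.48), Sec24d to Sec24c (0.44) and Atf6 to Atf6b (0.43).

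**Figure D4:**
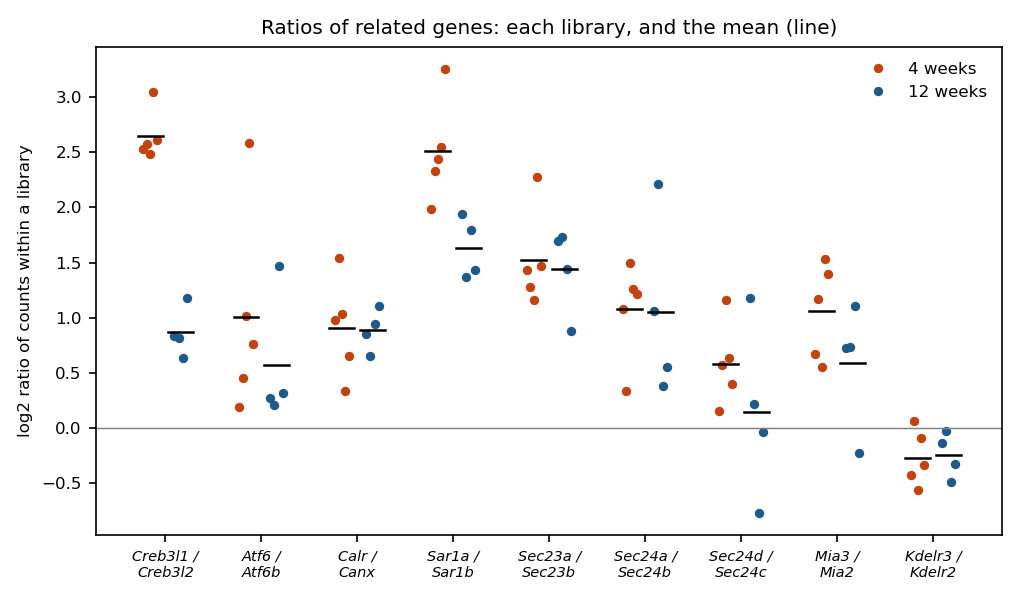
Log2 ratio of counts within a library (y axis) for 9 pairs of related genes (x axis), with a point for each library at 4 weeks (orange, n = 5) and 12 weeks (blue, n = 4) and a line at the mean. The ages do not overlap for Creb3l1 to Creb3l2 and for Sar1a to Sar1b, and overlap in the other 7 pairs.

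Set beside the promoter words shown above, the 6 genes with an ERSE match (Hspa5, Hsp90b1, Dnajc3, Calr, Canx and Pdia6) had log2 fold changes between −0.25 and 0.22. None of the 6 was called by edgeR, at an unadjusted p under 0.05 or by DESeq2. The 2 genes with ERSE-II, Dnajb11 and Herpud1, were at 0.23 and −0.06 and were not called either. The 3 genes with the UPRE core, Sec23a, Sec24d and Kdelr3, had log2 fold changes between 0.92 and 1.06, and 2 of them were called, against 1.99% of all genes tested. Among the other genes of the pathway, the UPRE core was found in 9 of 107 promoters (8.41%, against 8.33% of the 36), and 3 of the 9 were called higher at 4 weeks; ERSE was found in 4, of which none was called by edgeR, while 2 (Syvn1 and Creld2) had an unadjusted p under 0.05 and 1 (Syvn1) passed the DESeq2 test. Creb3l1, Kdelr2, Sec61a1, Atf6, Hyou1 and Manf had no promoter in the table used. The words were searched with the fold changes known, and with 3 genes the grouping is a description.

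The other genes of the pathway, 132 genes outside the 42 that take part in stress signalling, folding, translocation, glycosylation, COPII and COPI transport, were followed in the same fit. Of the 129 tested, 15 were higher at 4 weeks (11.6%, against the same 1.99% of all genes). This count was 24 with DESeq2, 1 without the Y-linked pair (4-week replicates 4 and 5) and 5 to 11 when 1 library was left out. None was called higher at 12 weeks by edgeR, where 4 had an unadjusted p under 0.05, and 1 was called by DESeq2. Their median log2 fold change was 0.37. The COPI coat and retrieval genes, which carry escaped ER residents back, had the highest share: 6 of 14 were called, and all 14 lay above 0, or 13 of 14 with library totals alone, with a median of 0.60. The stress response and degradation genes had 2 of 23 called and a median of 0.25, the folding and redox genes 2 of 20 and 0.11, and the targeting, translocation and glycosylation genes 3 of 30 and 0.31. The remaining COPII genes with the cargo receptors and tethers had 2 of 42 called (4.76%), the lowest share of these roles, with 30 above 0, 12 below 0 and a median of 0.42.

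Of these genes, the 6 with the smallest p were Creb3l3, Copg1, Copb2, Tram1, Prkcsh and Lman1. Creb3l3, a further relative of Creb3l1 best known from liver, had counts of 577, 335, 609, 444 and 452 at 4 weeks and 54.4, 56.6, 62.1 and 20.4 at 12 weeks, a log2 fold change of 3.32 (SE 0.37, edgeR adjusted p = 0.000654) that was larger than that of any of the 42 genes. Copg1 and Copb2, subunits of the COPI coat, were at 1.07 (SE 0.20, edgeR adjusted p = 0.0117) and 1.01 (SE 0.19, edgeR adjusted p = 0.0118). Tram1, a helper of the translocation channel, was at 1.02 (SE 0.20, edgeR adjusted p = 0.0156). Prkcsh, the beta subunit of glucosidase II, which trims the sugars that Calr and Canx read, was at 0.87 (SE 0.19, edgeR adjusted p = 0.0217), and Lman1, a cargo receptor that cycles between ER and Golgi, was at 1.04 (SE 0.22, edgeR adjusted p = 0.0221). Their counts ran from 1155 to 1969.9 at 4 weeks and 589.8 to 849 at 12 weeks for Copg1 and from 1851 to 2422 at 4 weeks and 555 to 1193 at 12 weeks for Lman1. In all 6 genes every 4-week library lay above every 12-week library. Creb3l3, Copg1, Copb2 and Tram1 were called in 9 of 9 fits that left out 1 library, and Prkcsh and Lman1 in 6 of 9. The third KDEL receptor gene, Kdelr1, was also among the 15, at 0.86 (SE 0.21, edgeR adjusted p = 0.0415), and was called in 1 of those 9 fits.

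The 12-week libraries spread more than the 4-week libraries in most of the 42 genes, as they did in most of all tested genes. The SD of log2 CPM was larger at 12 weeks in 32 of the 42 (76.2%), against 68.8% of all tested genes. The 12-week replicate 4 was the lowest library of its age in 25 of the 42 genes, whereas it was the lowest in 22.2% of all tested genes, and its median deviation from the mean of its age was −0.34 on the log2 scale. The same library had the lowest sum of osteoblast markers, 62992 CPM, and the highest sums of erythroid and megakaryocyte markers, 30733 and 4304 CPM. It also had the highest values of Igkc and Jchain. The part of these differences in the low values of 12-week replicate 4 was not tested. Without it, 6 of the 42 genes were called higher at 4 weeks in place of 8, and the median log2 fold change was 0.24.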

How the data were processed

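Femora were frozen unfixed and cut without decalcification, GFP-bearing vessels were collected by LMD, and libraries were made with a SMART-Seq v4 kit for low input and Nextera XT and sequenced as 75 bp read pairs. The authors mapped the reads to mm10 (GRCm38) with TopHat2 and Bowtie2 and, per the submitters' processing notes, counted them with featureCounts; versions, the strand setting and the annotation release are not given in the sources used here. The deposited values are whole-number counts per gene, 1 column for each of the 9 libraries, without normalization. Such cDNA is amplified before tagmentation and carries no molecular identifiers, so counts are not independent molecules and the 3-count floor covers counting error only.

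Symbols, positions and exon lengths came from GENCODE (GRCm38), with an entry for 37607 of the 39179 identifiers. Exon length was that of all annotated exons of a gene merged, and not that of the transcript expressed. Genes were filtered with filterByExpr, scaled by TMM and compared between the ages with the quasi-likelihood F test of edgeR 4.0.16 under R 4.3.3, without covariates. Samples were grouped by the age in their labels. The p-values were adjusted by Benjamini-Hochberg over 13418 genes and called under 0.05. CPM on the log2 scale had a prior count of 2, and ratios a pseudocount of 0.5. The alternatives were DESeq2 1.42.0, limma 3.58.1 voom with quality weights, 3 other scalings, 2 other filters, thinned counts, a replicate block, fewer genes and fewer libraries. The fits were tested on simulated data. The 42 genes, the other pathway genes, the pairs and the marker lists were chosen with earlier results of these data known, so counts over them are descriptions. Values are given in every library for all genes called, the 6 uncalled genes with the smallest p, the stress sensors, Hspa5, Xbp1, Creb3l1, Creb3l2 and the genes of the 9 pairs, and for Creb3l3 among the other pathway genes, where the 6 called genes with the smallest p were named; Kdelr1 was added after its values were seen, and the promoter words were chosen likewise.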

Additional observations from a re-analysis of the deposited data

Results flagged for a closer look

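In each age and gene the highest or lowest library was compared with the others by Dixon's ratio, the gap to the nearest library over the whole range. Of 84 groups examined, 3 had a library past the 95% critical value, where chance gives about 4.2. P4hb had 4895 normalized counts in 4-week replicate 1, against 5491 to 5614 in the other 4 libraries of that age. Sel1l had 458 in 12-week replicate 4, against 683 to 730 in the other 3, and this library was the lowest of its age in 25 of the 42 genes. Sec24a had 581 in 12-week replicate 2, against 207 to 261 in the other 3.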

How the results depend on the processing

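Of the 42 genes, 8 were higher at 4 weeks, and this count became 16 with DESeq2, 13 with at least 10 counts required in every library, 1 with a replicate block, 1 without the Y-linked pair and 5 to 8 when 1 library was left out. It was 5 without 4-week replicate 3 or 5, and 6 to 12 under the other settings. The genes higher at 12 weeks were 0 with limma voom, with the replicate block and without the Y-linked pair, and 0 to 1 when 1 library was left out. The median log2 fold change stayed between 0.15 and 0.48. Scaling by library totals alone moved the median of all genes by −0.17 and that of the 42 to 0.15, which is 0.33 above the median of all genes. The other pathway genes higher at 4 weeks were 24 with DESeq2, 7 with library totals, 1 with the replicate block, 1 without the Y-linked pair and 5 to 11 when 1 library was left out, with under 10 without 12-week replicate 2, 3 or 4 or 4-week replicate 2, 3, 4 or 5 and the lowest without 12-week replicate 4, and those higher at 12 weeks were 1 with DESeq2 and 1 with library totals. In each of these cases the cause was not tested, beyond the smaller number of libraries in those left out. No ratio passed under any setting, but a lone pair could not have passed with these numbers of libraries, so this says nothing about stability.

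Same-numbered libraries of the ages correlated at −0.032 to 0.030 in their deviations, which is small, although 3 of 4 correlated best with their own number. This check does not settle whether the numbers pair the libraries. No pairing was used in the main fit, and the replicate block says nothing of a weaker effect.

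For 26 named genes, 446 results kept their direction and side of the threshold, 22 came to pass it, 45 ceased to pass it and 7 turned direction, all 7 in genes that did not pass. The ratios turned direction in 17 results and kept it in 91. Atf6 turned to 0.22 with voom and 0.16 with the replicate block, Eif2ak3 to 0.14 with voom, and Hspa5 to 0.035 without the Y-linked pair, where the ratios Atf6 to Atf6b, Sec23a to Sec23b and Sec24a to Sec24b turned to −0.013, −0.15 and −0.083. When 1 library was left out, Atf6 ranged from −0.30 to 0.46, Ern1 from −0.021 to 1.06, Eif2ak3 from −0.56 to 0.15, and the ratios Calr to Canx from −0.14 to 0.16, Sec23a to Sec23b from −0.10 to 0.18, Sec24a to Sec24b from −0.20 to 0.41 and Kdelr3 to Kdelr2 from −0.11 to 0.047.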
